A study of Mus musculus with 7 samples.

Results

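Adipocytes release hormones and carrier proteins, and 9 of their genes besides adiponectin were examined in epididymal fat of mice that overexpress XBP1: leptin (Lep), resistin (Retn), adipsin (Cfd), retinol binding protein 4 (Rbp4), Nampt, chemerin (Rarres2), angiotensinogen (Agt), lipocalin 2 (Lcn2) and the fatty acid carrier Fabp4. They were taken by name, each from the row of the expression table that the platform annotation pairs with that symbol alone. Such a row was found for 8 of the 9, out of 19938 genes in all, and each of the 8 had 1 row. Cfd has no row with its symbol in the annotation used and was not analysed here.

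The samples were 3 from aP2-XBP1 transgenic mice, which overexpress XBP1 in adipose tissue, and 4 from age-matched wild type mice. All 7 came from male C57Bl/6J animals of 17 weeks on standard chow. Each sample of epididymal white adipose tissue was run on 1 Affymetrix Mouse Gene 1.0 ST array. The aP2 promoter is that of Fabp4 and is known to be active in macrophages as well as adipocytes, and the labels neither say whether wild type animals were littermates nor state outright that each sample is a separate animal. P-values therefore rest on the scatter among these arrays, some of which may be technical. Values are log2 expression after RMA.

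The secreted proteins of this set are made in the endoplasmic reticulum, enter it by a signal peptide and fold there with the help of chaperones that XBP1 is known to induce. Leptin tells the brain about fat stores, resistin is a cysteine-rich hormone that adipocytes make in mice, and RBP4 carries retinol in plasma. Chemerin attracts immune cells, angiotensinogen is the precursor of angiotensin, and LCN2 binds iron-carrying siderophores. NAMPT, the rate-limiting enzyme of NAD salvage, and FABP4 lack a signal peptide and leave the cell by another route.

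Xbp1 (10374035), the gene overexpressed, read 9.76, 9.99 and 9.66 in transgenic fat, against 8.90, 9.07, 8.94 and 9.19 in wild type fat, with no overlap (log2 difference 0.77, SE 0.11; limma adjusted p = 0.622). Markers of other tissues differed among the libraries. Averaged over Defb42, Serpina1f and Spink8, which the epididymis is known to express, log2 expression was 2.95, 3.10 and 2.65 in transgenic replicates 1, 2 and 3, against 9.31, 2.57, 9.38 and 10.05 in wild type replicates 1, 2, 3 and 4. Replicate 2 is thus the single wild type library in which these 3 transcripts, chosen with these data known, are dim. The other 4 of the 7 epididymis markers measured, Lcn5, Lcn8, Adam7 and Rnase10, went the other way: all 4 averaged higher in transgenic fat. They were dim, at 2.37 to 4.69 in transgenic and 1.97 to 3.60 in wild type libraries, so their direction has little weight. Over all 7 the median difference was 0.10. The mean of 16 adipocyte markers was 10.74, 10.76 and 10.87 in transgenic fat, against 10.00, 10.68, 10.20 and 10.35 in wild type fat, so it was lower in all 4 wild type libraries and least so in replicate 2. All 16 averaged higher in transgenic fat (median difference 0.45), against 53.1% of all probe sets, 0 of them past the test. At an unadjusted p under 0.05, limma had 10 of the 16 higher, against 4.82% of all probe sets. In whole tissue, fewer cells of a type and less RNA per cell cannot be told apart. Each member below is therefore given library by library, and the part that tissue makeup has in its difference was not tested.

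Each of the 8 genes averaged higher in transgenic than in wild type fat, against 53.1% of all 21789 probe sets tested. Their log2 differences ran from 0.13 to 0.71 with a median of 0.27, where the median of all probe sets was 0.01. None passed limma at an adjusted p of 0.05: 0 of 8 were called higher and 0 lower, against a background of 0% in either direction. At an unadjusted p under 0.05, limma had Rbp4 and Retn higher, 2 of 8 genes against 4.82% of all probe sets, and 0 of 8 lower against 3.12%. The adipocyte markers, with 10 of 16 higher at that cut, had the larger share. The groups overlapped for all 8, while 3.38% of all probe sets lay wholly higher in transgenic fat and 2.44% wholly lower.

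The order of the libraries recurred from gene to gene. Wild type replicate 1 was the lowest of the 7 libraries for 7 of the 8 genes, which holds for 20.0% of all probe sets, and Nampt was the exception. Replicate 2 was the top wild type library for 6 of the 8 (Agt and Lcn2 were the exceptions), a place it held in 24.0% of all probe sets. It lay above at least 1 transgenic library for all 8 genes, and above every transgenic library for 3 of them, Lep, Rarres2 and Lcn2. This order is not particular to the set. The mean of the 16 adipocyte markers was also lowest in wild type replicate 1 (10.00) and, within wild type, highest in replicate 2 (10.68). Among those markers, Pparg and Dgat1 were lowest in wild type replicate 3 instead.

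**Figure D1:**
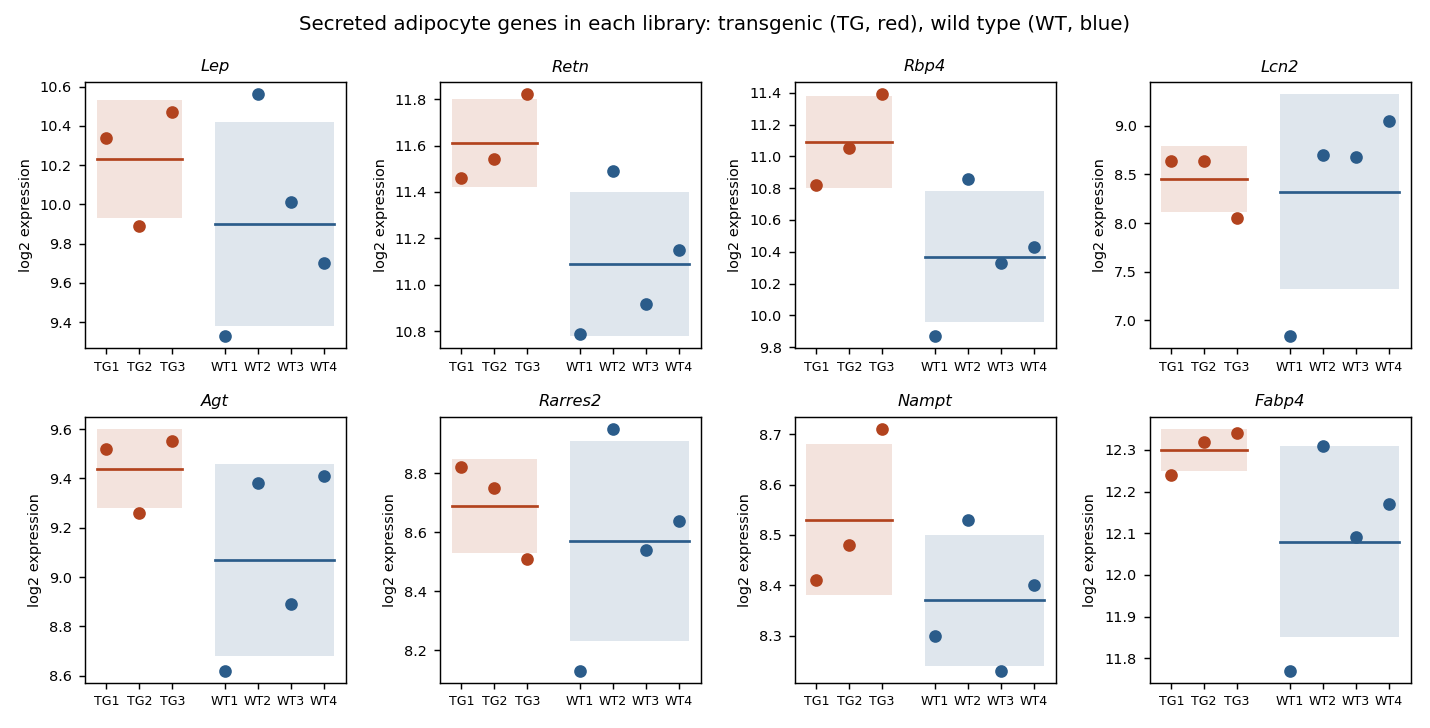
Log2 expression of the 8 genes in each library, with transgenic libraries (TG, red) left of wild type libraries (WT, blue). Lines are group means and bands ± 1 SD (n = 3 and n = 4), each panel has its own vertical range, and wild type replicate 1 is the lowest point in 7 of the 8 panels.

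Rbp4 had the largest difference of the set. Its probe set (10467319) read 10.82, 11.05 and 11.39 in transgenic replicates 1, 2 and 3, against 9.87, 10.86, 10.33 and 10.43 in wild type replicates 1 to 4. All transgenic values lay above wild type replicates 1, 3 and 4, but wild type replicate 2 lay just above transgenic replicate 1. The means were 11.09 ± 0.29 (SD, n = 3) in transgenic and 10.37 ± 0.41 (SD, n = 4) in wild type fat, a 1.64-fold difference (log2 difference 0.71, SE 0.25, 95% interval 0.12 to 1.31). By p-value it ranked 859 of 21789 (limma adjusted p = 0.622). Exact permutation over all 35 splits, two-sided, gave p = 0.0857, where 0.0286 is the smallest possible.

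Resistin followed the same order of libraries. Retn (10569870) read 11.46, 11.54 and 11.82 in transgenic fat, against 10.79, 11.49, 10.92 and 11.15 in wild type fat. The single wild type value inside the transgenic range was again that of replicate 2. The means were 11.61 ± 0.19 (SD, n = 3) in transgenic and 11.09 ± 0.31 (SD, n = 4) in wild type fat, 1.43-fold apart (log2 difference 0.52, SE 0.18; limma adjusted p = 0.622; exact permutation p = 0.0857).

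Leptin showed no order by genotype. Lep (10536789) read 10.34, 9.89 and 10.47 in transgenic fat and 9.33, 10.56, 10.01 and 9.70 in wild type fat. Both the lowest and the highest value came from wild type libraries, replicates 1 and 2, which spanned 1.22 on the log2 scale. Transgenic libraries spanned 0.58, and transgenic replicate 2 lay below wild type replicate 3. The log2 difference of the means was 0.33 (SE 0.30, 95% interval -0.39 to 1.06; limma adjusted p = 0.736), so these 7 arrays leave a range from 0.76-fold to 2.08-fold. The difference was 0.14 without wild type replicate 1, 0.21 without transgenic replicate 3, 0.50 without transgenic replicate 2 and 0.55 without wild type replicate 2.

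For angiotensinogen and chemerin the groups overlapped further. Agt (10582658) read 9.52, 9.26 and 9.55 in transgenic fat, against 8.62, 9.38, 8.89 and 9.41 in wild type fat. Wild type replicates 2 and 4 lay within the transgenic range, and the log2 difference was 0.37 (SE 0.21, limma adjusted p = 0.668), or 0.21 without wild type replicate 1. Rarres2 (10544573) read 8.82, 8.75 and 8.51 in transgenic fat, against 8.13, 8.95, 8.54 and 8.64 in wild type fat. The highest value of this gene was that of wild type replicate 2, and the log2 difference was 0.13 (SE 0.19, limma adjusted p = 0.826).

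Lcn2 varied more than any other gene of the set, and did so within wild type fat. Its probe set (10481627) read 8.64, 8.64 and 8.05 in transgenic fat, against 6.84, 8.70, 8.68 and 9.05 in wild type fat. Wild type replicate 1 stood below every other library, and the remaining 3 wild type values were above all transgenic values. The log2 difference was 0.13 (SE 0.54, limma adjusted p = 0.944; exact permutation p = 1), and it turned to -0.37 without wild type replicate 1. LCN2 is also a protein of neutrophil granules. The 8 neutrophil markers, such as S100a8 and S100a9, averaged 2.74 in each transgenic library and 2.63 to 2.81 in wild type libraries, in the dim range of the array. Markers of mesothelium, the layer that covers visceral fat, had a list mean of 6.65, 6.28 and 6.11 in transgenic fat, against 5.56, 6.68, 6.06 and 6.62 in wild type fat, over 9 of 9 markers. Upk3b, one of these markers, read 8.64, 7.88 and 8.04 in transgenic fat, against 5.88, 8.72, 6.89 and 7.98 in wild type fat, and was picked after its values were seen. Of the 9 mesothelium markers 5 shared with Lcn2 their lowest library, wild type replicate 1, while Krt8, Krt18 and Krt19 were lowest in transgenic replicate 3 and Wt1 in wild type replicate 4. The part of either cell type in the Lcn2 values was not tested.

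Nampt and Fabp4, whose proteins lack a signal peptide, had the narrowest ranges of transcript values over the 7 libraries, at 0.48 and 0.57. Nampt (10395259) read 8.41, 8.48 and 8.71 in transgenic fat, against 8.30, 8.53, 8.23 and 8.40 in wild type fat. The log2 difference was 0.17 (SE 0.10, 95% interval -0.07 to 0.41; limma adjusted p = 0.669), or 0.08 without transgenic replicate 3. Fabp4 (10497265) read 12.24, 12.32 and 12.34 in transgenic fat, against 11.77, 12.31, 12.09 and 12.17 in wild type fat. Only wild type replicate 2 reached the transgenic range, and transgenic libraries differed among themselves by no more than 0.10. The log2 difference was 0.22 (SE 0.13, limma adjusted p = 0.668), and its 95% interval ran from 0.94-fold to 1.43-fold. Without wild type replicate 1 the log2 difference was 0.11.

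As the gene whose promoter drives the transgene, Fabp4 was set beside Xbp1. Within each library, Xbp1 minus Fabp4 was -2.48, -2.33 and -2.69 in transgenic fat, against -2.87, -3.24, -3.15 and -2.98 in wild type fat. Both genes are probed differently, so the sign of this value has no meaning. Its shift between genotypes does not depend on a constant offset between the probe sets, but assumes that both respond in proportion. Fabp4 is among the brightest genes named here, and its response at that level was not tested. The shift was 0.56 and the groups did not overlap (exact two-sided permutation p = 0.0286, the smallest possible with 35 splits). Xbp1 therefore read higher relative to Fabp4 as well. The values of Xbp1 alone already separated the groups at the same permutation p, so this p adds no separate support. Relative to the adipocyte marker mean, given below, the difference of Xbp1 was smaller. Whether the probes tell transgene from endogenous Xbp1 is not given in the sources used here.

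**Figure D2:**
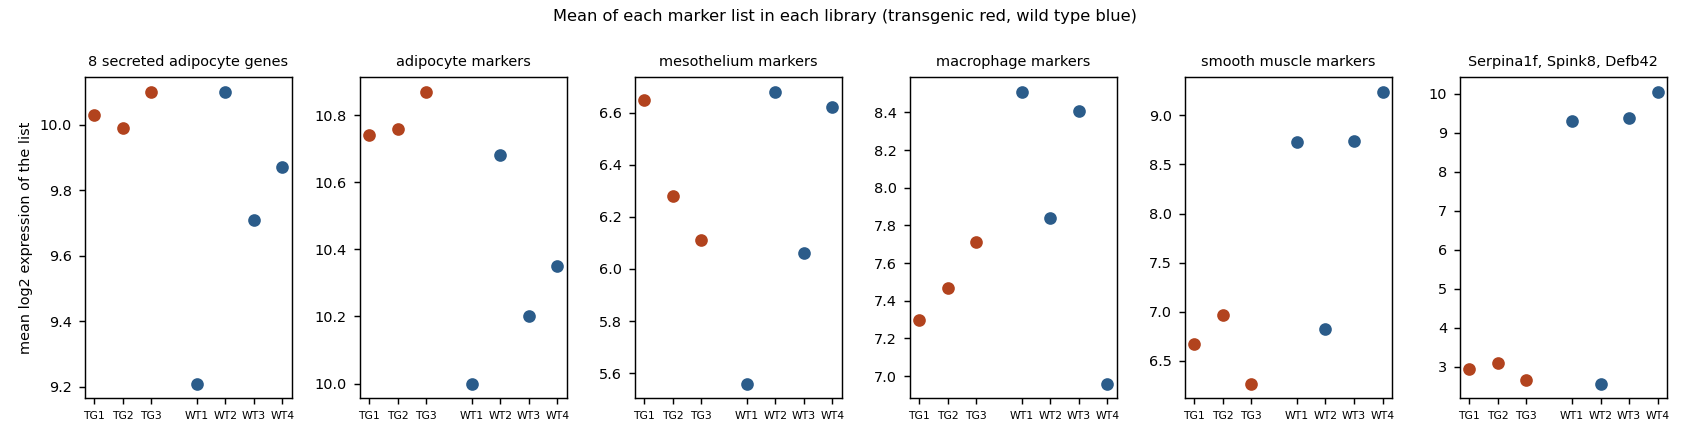
Mean log2 expression of the 8 secreted adipocyte genes and of 5 marker groups in each library, transgenic (red) left of wild type (blue), with 1 point per library and no error bars. The 8 genes and the adipocyte markers are lowest in wild type replicate 1, while wild type replicate 2 sits with the transgenic libraries for smooth muscle markers and the 3 epididymis genes.

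The mean of the 8 genes was 10.03, 9.99 and 10.10 in transgenic replicates 1, 2 and 3, against 9.21, 10.10, 9.71 and 9.87 in wild type replicates 1 to 4. To 2 decimals, wild type replicate 2 and the highest transgenic library had the same value. Smooth muscle markers ran the other way, at 6.67, 6.97 and 6.27 in transgenic fat and 8.73, 6.83, 8.74 and 9.24 in wild type fat, with 9 of 9 lower in the transgenic mean.

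When wild type replicate 2 alone stood for the controls, the median difference of the 8 genes was -0.0046. The transgenic mean lay within 0.1 of that library for 3 of the 8 (Nampt, Agt and Fabp4), against 56.6% of all probe sets. In that fit Rbp4 differed by 0.23 (SE 0.29), Retn by 0.12 (SE 0.19) and Agt by 0.06 (SE 0.16). Fabp4 differed by -0.01, Lcn2 by -0.25, Rarres2 by -0.26 and Lep by -0.33, all with limma adjusted p of 0.773 or more. Xbp1 itself differed by 0.73 (SE 0.17, limma adjusted p = 0.311), close to its 0.77 with all controls. This fit rests on 1 wild type library, so its SEs and p-values hold no spread among controls. They come from the 3 transgenic arrays and limma's pooling over probe sets, and assume that the lone library varies like those arrays.

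Relative to the adipocyte marker mean of the same library, a scaling chosen after the data were seen, 6 of the 8 genes had a lower mean in transgenic fat. The marker mean differs by 0.48 between genotypes, so this scaling lowers the difference of every gene by that amount and brings the median of all probe sets to -0.47. Rbp4 (0.23) and Retn (0.04) remained above 0, Agt (-0.12) and Lep (-0.15) lay just below, and Fabp4 (-0.27), Nampt (-0.31), Lcn2 (-0.35) and Rarres2 (-0.36) lay further down. All 8 thus differed by more than the median probe set and all but Rbp4 and Retn by less than the mean adipocyte marker. None passed limma (adjusted p = 0.116 or more). Under the same scaling Xbp1 differed by 0.29 (SE 0.21, limma adjusted p = 0.198).

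**Figure D3:**
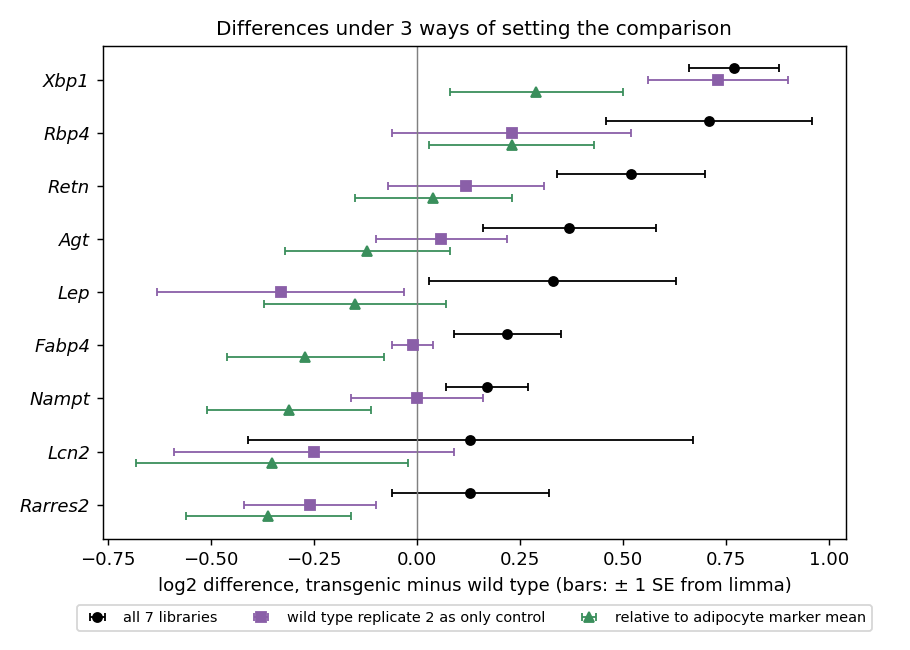
Log2 differences, transgenic minus wild type, of Xbp1 and the 8 genes with all 7 libraries (black), with wild type replicate 2 alone as control (purple) and relative to the adipocyte marker mean of each library (green). Bars are ± 1 SE from limma, which in the purple setting holds no spread among controls. Xbp1 is at 0.77, 0.73 and 0.29 in the 3 settings, and in the purple one Fabp4 and Nampt are near 0 and Lep, Lcn2 and Rarres2 below it.

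Genes whose profile over the 7 libraries lay closest to a member were found by the root mean square distance between profiles centred on their own means, among 17078 other genes. The nearest to Rbp4 were the sulfotransferase Sult1a1 (distance 0.03) and Chpt1, a choline phosphotransferase (0.04), where Rbp4 itself deviates from its mean by 0.47. Retn, with its own deviation at 0.34, lay nearest to Gpc4, a glypican released by adipocytes, and to Echs1, a mitochondrial enzyme of fatty acid oxidation (both 0.06). Lep had no match as close: Car4, a carbonic anhydrase, stood at 0.12 and Galnt15 at 0.13, against its own deviation of 0.41. Lcn2 was matched by Acsbg1, an acyl-CoA synthetase (0.07), and Lrp2 (0.17), with its own deviation at 0.68. Lrp2 is megalin, an endocytic receptor known to bind LCN2. It read 6.82, 6.65 and 5.90 in transgenic fat, against 4.77, 7.03, 6.60 and 6.91 in wild type fat, so wild type replicate 1 was again the lowest. Rarres2, with its own deviation at 0.25, lay nearest to Sulf2 and to Aass, which is dim at 2.92 to 3.75 (both 0.05). Agt, at 0.32, lay nearest to Tcaf1 (0.05) and Ptprd (0.07). Nampt lay nearest to Mapk6 (0.03) and Cops3 (0.04), and Fabp4 to Ankrd13c and Etfa (both 0.04). Nampt and Fabp4 themselves deviate by only 0.15 and 0.19, so a small distance means less for them. These distances are descriptions over 7 libraries that share the tissue differences given above.

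Relatives of the members within their protein families behaved unevenly, and many of them were dim. In the resistin family 3 of 4 genes averaged higher in transgenic fat, against 53.1% of all probe sets, and 0 passed. Retnla, which macrophages and adipose tissue express, read 11.24, 11.13 and 11.03 in transgenic fat, against 9.51, 11.21, 10.20 and 10.98 in wild type fat (log2 difference 0.66, SE 0.41). For Retnla, too, wild type replicate 2 lay within the transgenic range. Retnlg differed by 0.32 (SE 0.16) at dim values.

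Among 10 fatty acid binding proteins 5 averaged higher and 5 lower in transgenic fat (median difference 0.03), and 0 passed. Of these, Fabp1, Fabp2, Fabp6, Fabp7, Fabp12 and Pmp2 were dim in every library, at 1.98 to 3.65, so the direction of their differences has little weight. Fabp5, the epidermal form that macrophages also express, read 7.08, 7.99 and 8.83 in transgenic fat, against 8.46, 7.54, 8.14 and 6.41 in wild type fat, a spread unlike that of Fabp4. Macrophage markers had a list mean of 7.30, 7.47 and 7.71 in transgenic fat and 8.51, 7.84, 8.41 and 6.96 in wild type fat, also lowest in wild type replicate 4, and their part in the Fabp5 values was not tested. Fabp3, the heart form, differed by -0.48 (SE 0.28) at dim values of 3.41 to 4.73. Fabp5 and Fabp3 have 2 rows each, and only the row with the higher mean is described here. Fabp9, a form known from sperm, read 8.14 in wild type replicate 4 but 2.46 to 2.63 in transgenic fat and 2.48 to 2.88 in the other wild type libraries; Fabp5 and Fabp9 were picked after their values were seen.

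Of 18 lipocalins measured 13 had a higher transgenic mean, against 53.1% of all probe sets, with a median difference of 0.18, and 0 passed. Many were dim, among them Lcn3, Lcn4, Lcn5, Lcn6, Lcn8, Lcn9, Lcn11 and Obp2a at 1.79 to 4.14, where direction has little weight. At an unadjusted p under 0.05, limma had 4 of the 18 higher, against 4.82% of all probe sets: Rbp4, Orm1, Lcn10 and Lcn12 (the last named after its value was seen). Orm1, an acute-phase carrier of the lipocalin fold, read 9.65, 10.61 and 11.02 in transgenic fat, against 8.46, 9.90, 9.43 and 8.50 in wild type fat. That is a log2 difference of 1.36 (SE 0.48, limma adjusted p = 0.622), with wild type replicate 2 above transgenic replicate 1. Lcn10 differed by 0.31 at dim values of 2.22 to 2.90, and Lcn12 by 0.23 at dim values of 3.29 to 3.81.

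**Figure D4:**
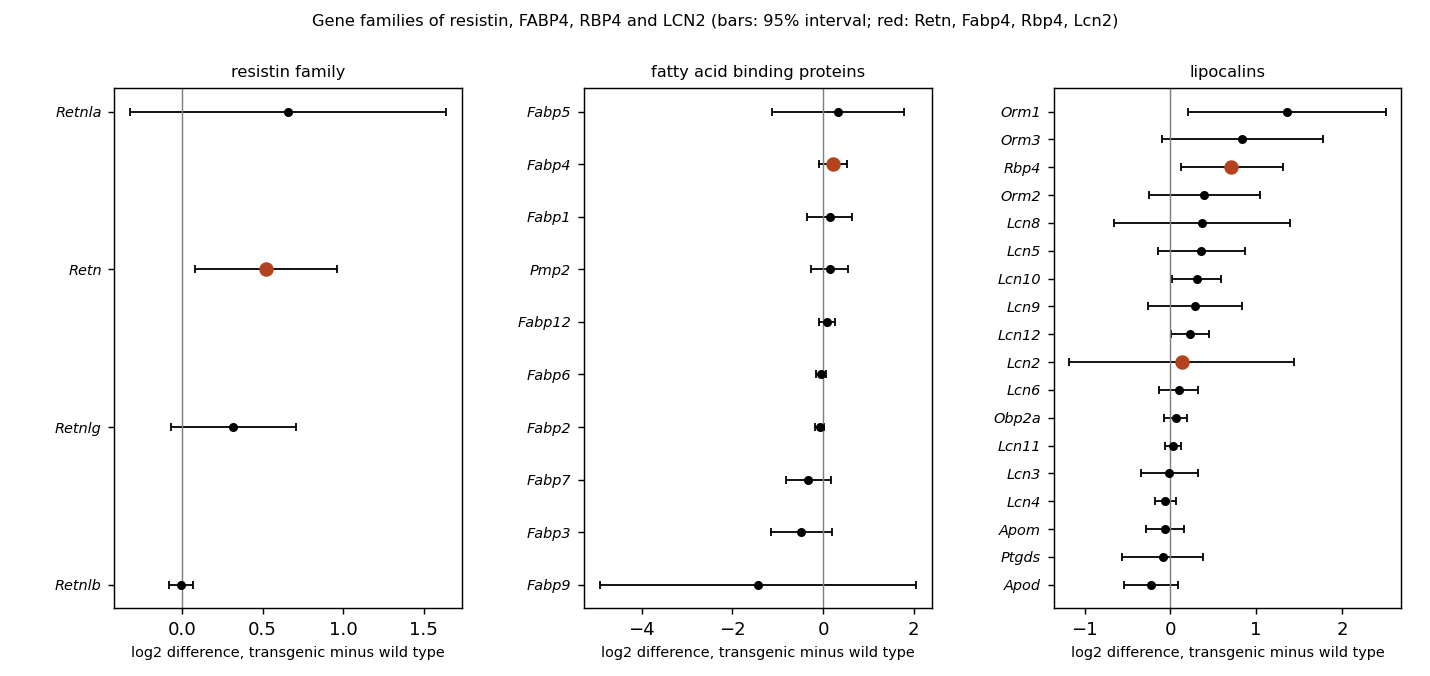
Log2 differences, transgenic minus wild type, of the resistin family, the fatty acid binding proteins and the lipocalins, with 95% intervals from limma. Red points are Retn, Fabp4, Rbp4 and Lcn2; the intervals of Retn, Rbp4 and Orm1 are among those above 0 before adjustment for multiple tests, and that of Fabp9, which is high in 1 library, is the widest.

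Receptors of these hormones had no common direction. Of 12 measured, 5 averaged higher and 7 lower in transgenic fat (median difference -0.08), and 0 passed. The smallest p belonged to Cap1, reported as a resistin receptor on human monocytes, at 9.26 ± 0.05 (SD, n = 3) in transgenic and 9.62 ± 0.32 (SD, n = 4) in wild type fat (log2 difference -0.36, SE 0.17). Gpr1, a second chemerin receptor, differed by 0.16 at dim values, and the angiotensin receptor Agtr1a by 0.24 (SE 0.16). Cmklr1, the main chemerin receptor, read 7.92, 7.10 and 7.40 in transgenic fat, against 7.55, 8.33, 7.55 and 7.28 in wild type fat. It was named for its role after values were seen.

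The enzymes and partners around each member also passed no test. In the renin-angiotensin group 4 of 7 genes had a higher transgenic mean (median difference 0.02). Enpep, the aminopeptidase that trims angiotensin, read 8.64, 9.42 and 9.97 in transgenic fat, against 7.50, 8.71, 7.99 and 8.19 in wild type fat (log2 difference 1.25, SE 0.39; limma adjusted p = 0.622). Here wild type replicate 2 lay above transgenic replicate 1. Atp6ap2, the prorenin receptor, differed by -0.25 (SE 0.10). Around adipsin, 4 of 9 genes of the alternative complement pathway were higher and 5 lower (median -0.02), with its substrate factor B, Cfb, at 0.27 (SE 0.17).

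Retinoid handling had 7 of 9 genes with a higher transgenic mean, against 53.1% of all probe sets, and a median difference of 0.10. Rdh10, a retinol dehydrogenase, differed by 0.20 (SE 0.09) and Rbp7, an intracellular retinoid carrier, by 0.48 (SE 0.25). In NAD metabolism 6 of 10 were higher (median 0.04). Nnmt, which methylates the nicotinamide that NAMPT salvages, read 7.93, 8.09 and 8.09 in transgenic fat, against 7.32, 7.89, 7.16 and 7.61 in wild type fat. Its groups did not overlap, the log2 difference was 0.54 (SE 0.18), and the limma adjusted p = 0.622 did not pass. Nmnat1, which acts in the next step after NAMPT, differed by 0.14 (SE 0.06).

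Other secreted factors of fat were as mixed. Of 31 measured, 18 averaged higher and 13 lower in transgenic fat (median difference 0.05), and 0 passed. Vegfa, the endothelial growth factor, read 9.19, 8.71 and 9.10 in transgenic fat, against 8.28, 8.71, 8.41 and 8.65 in wild type fat (log2 difference 0.49, SE 0.16). Nrg4, a neuregulin of brown and white fat, differed by 0.70 (SE 0.31), and its lowest transgenic value, 8.07, lay just above 8.01 in wild type replicates 2 and 4. C1qtnf12, adipolin, differed by -0.27 (SE 0.12). Adipoq, adiponectin, read 11.83, 11.80 and 11.69 in transgenic fat and 11.09, 11.74, 11.34 and 11.56 in wild type fat. Its wild type libraries stand in the same order as those of Rbp4 and Fabp4 and of Retn, with replicate 2 highest and replicate 1 lowest.

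Because XBP1 binds DNA, the 250 bases before the transcription start were searched for letters of its known sites. RefSeq windows (GRCm38.p6) were at hand for 7 of the 9 genes, with 2 starts for Rbp4, so 8 windows in all. The full ER stress element (ERSE), its second form (ERSE-II) and the unfolded protein response element TGACGTGG, each on both strands, were in 0 of the 8, and in 0.113%, 0.0304% and 0.563% of 32851 windows of the same length. The short CCACG, which ends both ERSE forms, was in 2 of the 8, Nampt and one start of Rbp4, against 28.3% of all windows. The C/EBP palindrome TTGCGCAA was in the Lep window, 55 bases before the start, and in 0.164% of all windows. C/EBP alpha is a transcription factor of adipocytes known to act on the leptin promoter. These 3 windows are shown because they are the ones that hold such letters, in capitals, with TATAAA also in capitals where present. They are chr6:29059971-29060220 on the plus strand for Lep, chr12:32820085-32820334 on the plus strand for Nampt and chr19:38124812-38125061 on the minus strand for Rbp4, each written 5′ to 3′ along its gene.
Lep: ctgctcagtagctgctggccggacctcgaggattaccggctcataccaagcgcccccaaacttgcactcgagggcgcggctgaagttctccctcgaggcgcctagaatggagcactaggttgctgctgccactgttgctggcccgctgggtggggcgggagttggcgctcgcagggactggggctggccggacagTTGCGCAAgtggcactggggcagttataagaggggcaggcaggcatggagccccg
Nampt: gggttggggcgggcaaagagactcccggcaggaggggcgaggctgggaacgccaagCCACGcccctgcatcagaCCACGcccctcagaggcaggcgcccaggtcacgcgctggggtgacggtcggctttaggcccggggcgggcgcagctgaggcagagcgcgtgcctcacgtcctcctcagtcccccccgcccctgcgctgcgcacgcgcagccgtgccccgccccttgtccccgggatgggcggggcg
Rbp4: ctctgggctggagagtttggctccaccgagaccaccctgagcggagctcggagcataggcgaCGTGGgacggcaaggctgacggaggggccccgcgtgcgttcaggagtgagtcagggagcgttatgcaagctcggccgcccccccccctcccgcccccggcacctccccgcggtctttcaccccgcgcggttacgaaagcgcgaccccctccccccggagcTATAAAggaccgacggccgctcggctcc

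A match is a run of letters and not a shown binding site, and absence from these windows says nothing of sites elsewhere. The gene with the largest difference, Rbp4, holds CCACG on the opposite strand (CGTGG as printed) 188 bases before this start and TATAAA 28 bases before it. Nampt, with a difference of 0.17, holds CCACG at 194 and 176 bases before its start.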

How the data were processed

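RNA of epididymal fat was measured on 7 arrays. The authors deposited log2 expression values made with RMA, per the submitters' processing notes, which corrects background, normalizes by quantiles and summarises probes. The sources used here give no RMA version, filter or genome build. Quantile scaling hides any change common to all genes. Columns were matched to samples by accession, and 0 sample columns were left unused.

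Of 35556 probe sets, 21789 carry exactly 1 symbol in the platform annotation, 1621 several and 12146 none. In R 4.3.3, limma 3.58.1 (lmFit, then eBayes) was run on the 21789 as transgenic minus wild type with no covariate, and two-sided p-values were adjusted over all of them by Benjamini-Hochberg at 0.05. Where a gene has several rows, that with the highest mean was used. Single genes also had an exact two-sided permutation test of the absolute difference of means over 35 splits. The number of arrays limits the precision. The members and lists were chosen with earlier results of these data known. Named genes were the members, Xbp1, Adipoq, up to 3 of smallest p in each list and, for each member, the 2 nearest profiles, with olfactory, vomeronasal, predicted and small RNA genes left out of those profiles.

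Alternatives were a replicate block, quantile normalization again, a common array median, a filter on dim probe sets, all rows tested, array weights (statmod 1.5.0), limma's trend and robust options, each library left out, wild type replicate 2 alone as control, the mean of Serpina1f, Spink8 and Defb42 as a covariate, an adjusted p of 0.1 and, added after the data were seen, scaling to the adipocyte marker mean. The fit was tested on simulated data. Promoter windows and their build came from RefSeq. Figures were drawn with Python 3.11.15, pandas 2.3.3 and matplotlib 3.10.9.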

Additional observations from a re-analysis of the deposited data

Results flagged for a closer look

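Among the 4 wild type libraries, single values stood apart from the other 3 by Dixon's ratio (the gap to the nearest value over the range) for 5 of 32 genes examined. Chance sets apart about 1 of 20 such groups, and Fabp9 was picked after its high value was seen, which leaves 4. Lcn2 read 6.84 in wild type replicate 1, with a ratio of 0.834, and the difference between genotypes changed sign without that library. Fabp9 read 8.14 in wild type replicate 4 (0.93). The remaining 3, all dim, were set apart by small steps: Lcn10 at 2.22 in wild type replicate 4 (0.851), Gpr1 at 3.56 in wild type replicate 1 (0.945) and Nmnat1 at 4.25 in wild type replicate 1 (ratio 1, because the other 3 values are tied at 4.38).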

How the results depend on the processing

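The 7 arrays limit every comparison, and 0 of the 8 members passed under any of the 18 alternatives. Over all genes 0 were called in either direction with limma, with 1050 higher and 679 lower at an unadjusted p under 0.05. Counts changed to 7 higher and 84 lower without wild type replicate 2 (range over the libraries left out 0 to 7 and 0 to 84), to 3 lower with the epididymal marker covariate, and to 5 higher and 184 lower relative to the adipocyte marker mean, a scaling that shifts every gene by the same amount within a library. The median difference of the members was 0.27, ran from 0.14 (without wild type replicate 1) to 0.38 (without wild type replicate 2), and turned to -0.0046 when wild type replicate 2 alone was the control and to -0.21 relative to the adipocyte marker mean. With the covariate it was 0.02. Replicate numbers gave no sign of pairing: deviations of same-numbered samples correlated at -0.139, -0.0946 and 0.0577, and those of other pairs at -0.18 to 0.139. With so few arrays this cannot exclude pairing. The replicate block gave 0 calls and a median of 0.32, equal to leaving out wild type replicate 4, the number that transgenic fat lacks.

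Of 575 values of single genes under alternatives 0 passed the threshold. Direction turned in 23 of them apart from the adipocyte scaling, which by its construction takes 0.48 from every difference and so turns each gene between 0 and 0.48, 17 here. Array weights turned Lcn2 (-0.03). The covariate turned Lep (-0.29), Rarres2 (-0.20), Lcn2 (-0.11), Cfb (-0.07), Fabp3 (0.04) and Lrp2 (-0.41). Wild type replicate 2 alone as control turned Lep (-0.33), Rarres2 (-0.26), Lcn2 (-0.25), Fabp4 (-0.01), Cfb (-0.09), Fabp3 (0.03), Lrp2 (-0.57) and Retnla (-0.08). The adipocyte scaling turned Adipoq (-0.14, itself one of the markers), Agt (-0.12), Agtr1a (-0.24), Cfb (-0.21), Fabp4 (-0.27), Fabp5 (-0.15), Gpr1 (-0.32), Lcn10 (-0.18), Lcn2 (-0.35), Lep (-0.15), Lrp2 (-0.35), Nampt (-0.31), Nmnat1 (-0.34), Rarres2 (-0.36), Rbp7 (-0.0018), Rdh10 (-0.28) and Retnlg (-0.16). The replicate block turned Fabp5 (-0.08). With single libraries left out, Rbp4 ranged from 0.55 to 0.88, Retn from 0.41 to 0.65, Lep from 0.14 to 0.55, Agt from 0.21 to 0.48, Fabp4 from 0.11 to 0.29 and Nampt from 0.08 to 0.23. Lcn2 ranged from -0.37 to 0.37, Rarres2 from -0.02 to 0.25 and Lrp2 from -0.39 to 0.41, each lowest without wild type replicate 1 (Lrp2 was also -0.05 without transgenic replicate 1). Cmklr1 ranged from -0.43 to 0.01, turning without wild type replicate 2, and Fabp5 from -0.10 to 0.77, turning without transgenic replicate 3 or wild type replicate 4 (-0.08). The cause was not tested. Averaging rows of a gene was not run because each member has 1 row.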

Other observations

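Among markers of other cells, Cd163, a scavenger receptor of resident macrophages, had the smallest p of the macrophage list and went against it. It read 9.05, 8.99 and 9.10 in transgenic fat, against 7.63, 8.66, 8.11 and 8.24 in wild type fat, while 7 of the 8 measured macrophage markers had a lower transgenic mean. Itgax, an integrin of inflammatory macrophages and dendritic cells, read 4.76, 4.79 and 5.54 in transgenic fat, against 6.82, 6.76, 6.71 and 5.15 in wild type fat. For Itgax wild type replicate 2 stood with wild type replicates 1 and 3, unlike its place for the 8 secreted adipocyte genes. Neither gene passed limma (adjusted p = 0.622 for both).

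Endothelial markers had a higher transgenic mean in 6 of 6 genes, against 53.1% of all probe sets. Their median difference was 0.18 and 0 passed. At an unadjusted p under 0.05, limma had 2 of the 6 higher, against 4.82% of all probe sets. Pecam1 read 8.48, 8.41 and 8.43 in transgenic fat, against 8.25, 8.33, 8.31 and 8.07 in wild type fat. Of 5 progenitor markers 4 averaged higher in transgenic fat and 1 lower (median difference 0.03), with Pi16 at 0.27, Dpp4 at 0.19 and Pdgfra, the lower one, at -0.16. Mesothelium markers were split, with 6 of 9 higher and 3 lower in transgenic fat (median difference 0.08) and 0 passing. The lower ones were the keratins Krt8 (-0.48), Krt18 (-0.59) and Krt19 (-0.79). Krt19 read 7.44, 7.29 and 6.61 in transgenic fat, against 7.51, 7.51, 8.01 and 8.57 in wild type fat, with no overlap. Among the higher ones, picked after their values were seen, were Msln (0.56) and Upk3b (0.82).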
